A study of Mus musculus with 8 samples.

Results

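The genes described here are the ER chaperone and amino acid stress genes, 34 genes of the unfolded protein response and of the ATF4 response to amino acid shortage, measured in mouse embryonic stem (ES) cells. A gene was measured through its brightest probe, provided that the 2 arrays of some group both gave it a detection p-value below 0.05. This rule gave a probe for 30 of the 34 genes, of 8733 genes tested in all: 14 of 17 listed under the chaperone arm and 16 of 17 listed under the ATF4 arm. Canx, Sdf2l1, Manf and Pycr1 had no probe named here. Detection reached all 8 arrays for 28 of the 30 and 7 of 8 arrays for Edem1 and Slc7a11. Edem1 was not detected on normal replicate 2. Slc7a11 was not detected on H19-labelled replicate 1, where it stood at the threshold. The genes Pdia4 and Edem1 of the chaperone arm and Asns and Mthfd2 of the ATF4 arm lie on chromosome 6, and they are marked throughout because genes of that chromosome had, as a whole, higher values in both modified lines.

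Total RNA of 4 groups of B6D2F1 hybrid ES cells was read on Illumina bead arrays, 2 arrays per group, labelled as biological replicates. The Igf2-labelled group is a parthenogenetic line said to overexpress Igf2, a fetal growth factor gene normally expressed from the paternal copy. The H19-labelled group is a parthenogenetic line said to have reduced H19, a noncoding RNA gene beside Igf2. Parthenogenetic ES cells, derived from oocytes without a father's genome and not modified, are the cells both lines are set against, and normal ES cells derived from embryos are the fourth group. All 3 parthenogenetic groups thus share the absence of a paternal genome. The means of modification, the number of clones per line, the passage and the culture conditions are not stated in the labels. The label of biological replicate does not say whether the 2 samples of a group were separate cultures, so p-values measure only the spread between these arrays.

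Proteins that enter the endoplasmic reticulum (ER) are folded there by chaperones and disulfide isomerases. When unfolded proteins accumulate, the membrane sensors IRE1, PERK and ATF6 start the unfolded protein response, in which ATF6 and spliced XBP1 raise chaperone genes. PERK, and GCN2 when amino acids run short, phosphorylate eIF2alpha, which lowers general translation while ATF4 is made, and ATF4 raises genes of amino acid synthesis and transport. These pathways meet at several genes, and sites of each kind are known in their promoters.

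The promoters are shown because the arms differ in the response elements they hold. RefSeq promoter windows (GRCm38.p6) of 300 bases, 250 before to 50 after the annotated start, were found for 30 of the 34 genes, all but Cth, Hyou1, Manf and Slc7a5. The ER stress element, CCAAT followed by 9 bases of any kind and CCACG on either strand, is the classic site of ATF6 with the factor NF-Y. It was present in 8 of 15 chaperone windows (Hspa5, Hsp90b1, Pdia6, Calr, Canx, Dnajc3, Creld2 and Syvn1), in 0 of 15 ATF4 windows and in 0.119% of all 32851 windows. The amino acid response letters TGATGNAA, on either strand, are those read by ATF4 with a C/EBP partner. They were present in 6 of 15 ATF4 windows (Atf3, Trib3, Chac1, Asns, Pycr1 and Slc7a11), in 1 of 15 chaperone windows (Herpud1) and in 3.97% of all windows. The letters TGACGTGG of the XBP1-type element (0.676% of all windows) and TGACGTCA of the cyclic AMP response element (1.79%) were in no member window. A match is a description of letters, and genes without one may have sites elsewhere. The 4 chaperone sequences below have the ER stress element in capitals and the 4 ATF4 sequences have the amino acid response letters in capitals, in each case on the gene's strand with up to 40 bases either side. The matches of Creld2, Atf3 and Chac1, and the downstream match of Hsp90b1 and of Slc7a11, read on the opposite strand.
Hspa5 (chr2:34771985-34772083, plus strand): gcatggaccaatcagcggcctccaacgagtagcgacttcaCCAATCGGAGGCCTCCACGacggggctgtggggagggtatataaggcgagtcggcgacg
Hsp90b1 (chr10:86705493-86705694, minus strand): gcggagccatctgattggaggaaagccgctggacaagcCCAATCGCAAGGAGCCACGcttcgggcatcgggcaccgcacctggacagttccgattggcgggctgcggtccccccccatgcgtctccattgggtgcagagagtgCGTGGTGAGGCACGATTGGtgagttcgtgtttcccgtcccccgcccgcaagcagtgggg
Pdia6 (chr12:17266451-17266549, plus strand): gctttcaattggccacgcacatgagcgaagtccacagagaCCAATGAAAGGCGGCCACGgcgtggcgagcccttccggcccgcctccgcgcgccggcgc
Creld2 (chr15:88819480-88819578, plus strand): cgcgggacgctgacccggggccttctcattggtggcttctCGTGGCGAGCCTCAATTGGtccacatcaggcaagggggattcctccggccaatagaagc
Atf3 (chr1:191183396-191183483, minus strand): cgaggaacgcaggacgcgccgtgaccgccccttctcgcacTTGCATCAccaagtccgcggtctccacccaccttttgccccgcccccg
Chac1 (chr2:119351009-119351096, plus strand): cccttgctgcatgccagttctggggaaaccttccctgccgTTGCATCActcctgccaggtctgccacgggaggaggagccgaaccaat
Asns (chr6:7693210-7693272, minus strand): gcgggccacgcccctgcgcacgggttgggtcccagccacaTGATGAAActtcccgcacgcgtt
Slc7a11 (chr3:50443614-50443719, minus strand): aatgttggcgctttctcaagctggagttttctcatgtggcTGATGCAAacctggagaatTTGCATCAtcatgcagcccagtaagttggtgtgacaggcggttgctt

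In Hspa5 the element began 65 bases upstream of the start, in Pdia6 98 bases and in Creld2 126 bases upstream, on the opposite strand. Hsp90b1 had 2 elements, beginning 212 and 107 bases upstream. Of the ATF4 genes, Asns had its match 23 bases upstream, Atf3 110 bases and Chac1 193 bases, and Slc7a11 had 2 matches that began 66 and 47 bases upstream on opposite strands.

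**Figure D1:**
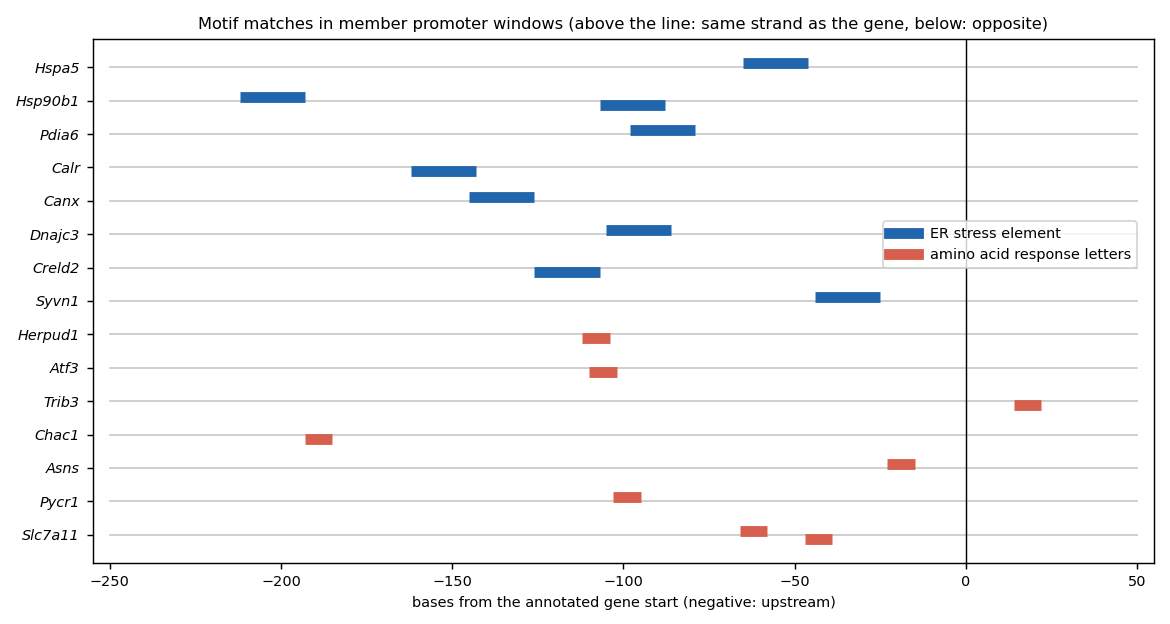
Position of each motif match (bars) in the promoter windows of the members that hold one, in bases from the annotated gene start, with upstream negative. The ER stress element appears in 8 chaperone windows, all upstream of the start, and the amino acid response letters in 6 ATF4 windows and in that of Herpud1.

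The arrays had median intensities of 172.1 to 196.7 units and detected 47.1% to 49.5% of their 25697 probes, of which 12932 were tested. Replicates correlated at 0.995 in the Igf2-labelled line, 0.996 in the H19-labelled line and 0.995 in parthenogenetic cells, against 0.961 in normal cells, where 1027 probes lay over 1 log2 unit apart. Normal replicate 2 stood apart from the other 7 arrays: all 26 measured fibroblast markers were lower on it than on normal replicate 1 (median -1.36 log2) and 11 of 13 endoderm markers were higher (median 0.33, from -0.74 to 3.43). The main results of the members with the normal group are therefore given with and without that array. Among the members the median gap between replicates was 0.101, 0.047 and 0.066 in the 3 parthenogenetic groups and 0.267 in normal cells, with Pdia3 0.905 apart there. All 13 measured ES cell markers were detected on all arrays. Igf2 itself measured 15.61 and 15.49 on the Igf2-labelled arrays, 14.98 and 14.94 on the H19-labelled arrays, 15.58 and 15.62 on the parthenogenetic arrays and 15.62 and 13.63 on the normal arrays, no higher in the line named for it than in parthenogenetic cells. H19 was not analysed here, and the lines are called by their labels. All levels are normalised log2 intensities of a probe, in which 1 unit is a factor of 2, and all changes are differences of group means on that scale with the SE of limma's moderated fit.

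The chaperone arm had its highest group mean in the H19-labelled line for 7 of 14 genes, in the Igf2-labelled line for 5, in parthenogenetic cells for 2 and in normal cells for 0, and its lowest in normal cells for 13. Without normal replicate 2 its lowest mean was in the H19-labelled line for 3 of 14, in parthenogenetic cells for 5 and in normal cells for 6. Normal cells were then highest for 1, Dnajb9. The count of 13 thus rests on that array. For the ATF4 arm the highest mean fell in the H19-labelled line for 6 of 16 genes, in the Igf2-labelled line for 4, in parthenogenetic cells for 4 and in normal cells for 2. Its lowest mean was also most often in normal cells, for 10 of 16 genes, and for 9 of 16 without normal replicate 2. The mean deviation of the chaperone arm from each gene's 8-array mean was 0.146 and 0.203 on the Igf2-labelled arrays, 0.219 and 0.254 on the H19-labelled arrays, -0.094 and -0.147 on the parthenogenetic arrays and -0.138 and -0.444 on the normal arrays. Every array of both modified lines thus lay above every array of the other groups. The ATF4 arm gave 0.091 and 0.044 on the Igf2-labelled arrays, -0.01 and 0.006 on the H19-labelled arrays, 0.092 and 0.031 on the parthenogenetic arrays and -0.128 and -0.127 on the normal arrays, so that Igf2-labelled and parthenogenetic arrays overlapped, the H19-labelled arrays lay just below them and the normal arrays were lowest. These means are descriptions, with no test.

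Counted by gene, 3 of 30 members rose and 2 fell in the H19-labelled line against parthenogenetic cells at an adjusted p under 0.05 in limma's fit of all 8 arrays, where 2.52% of all probes rose and 1.83% fell. In the Igf2-labelled line none of the 30 passed against the same cells, where 0.271% of all probes rose and 0.271% fell. Before adjustment 11 of the 30 had a limma p under 0.05 there, as did 11.1% of all probes. Both comparisons share the parthenogenetic arrays. In the fit of 8 arrays the gap between the normal replicates enters the error of every probe. Without the normal arrays 10 members rose and 4 fell in the H19-labelled line, against backgrounds of 16.1% and 17.1%, and 5 rose and 3 fell in the Igf2-labelled line, against 5.44% and 4.25%. Leaving out 1 array moved the first count of 5 to 1 without either Igf2-labelled array, to 0 without any one H19-labelled or parthenogenetic array, and to 14 without either normal array. The Igf2-labelled count became 8 without either normal array and stayed at 0 without any other. Below, a gene is said to have risen or fallen where it passed in the fit of 8 arrays, and the fit of 6 arrays (without the normal ones) is named where it alone gave the call.

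The chaperone arm had the higher values in both modified lines. Its median change was 0.349 in the H19-labelled line and 0.231 in the Igf2-labelled line over parthenogenetic cells, against medians over all probes of 0.02 and -0.012. Values were higher for 11 of 14 genes in the H19-labelled line and for 12 of 14 in the Igf2-labelled line, against 53% and 47.5% of all probes. In the H19-labelled line 3 genes rose (Pdia4, Creld2 and Edem1) and none fell in the fit of 8 arrays. In the fit of 6 arrays 7 rose (these and Hspa5, Hsp90b1, Pdia6 and Hyou1) and Herpud1 fell. In the Igf2-labelled line none passed in the fit of 8 arrays, with 5 of 14 at an unadjusted p under 0.05, against 11.1% of all probes. Pdia4, Creld2 and Edem1 rose there in the fit of 6. Fewer cells that express a gene and less RNA of it per cell cannot be told apart in such bulk RNA.

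Pdia4, a disulfide isomerase of the ER on chromosome 6, measured 12.61 and 12.59 on the Igf2-labelled arrays, 12.84 and 12.68 on the H19-labelled arrays, 11.86 and 11.85 on the parthenogenetic arrays and 11.61 and 11.75 on the normal arrays. Both lines lay above parthenogenetic and normal cells on every array, without overlap. How many of all probes separate in this way was not counted, for this gene or those below. The change over parthenogenetic cells was 0.91 with an SE of 0.11 and an adjusted p of 0.0134 in the H19-labelled line and 0.75 with an SE of 0.11 and an adjusted p of 0.0564 in the Igf2-labelled line (adjusted p = 0.0058 in the fit of 6 arrays). Creld2, an ER protein with disulfide isomerase activity and one of the genes with an ER stress element shown above, measured 12.54 and 12.46 on the Igf2-labelled arrays, 12.76 and 12.74 on the H19-labelled arrays, 12.05 and 12.03 on the parthenogenetic arrays and 11.91 and 11.92 on the normal arrays. The order of the groups was the same as for Pdia4, with no overlap between the modified lines and the rest. It was 1.64-fold higher in the H19-labelled line (0.71 with an SE of 0.10 and an adjusted p of 0.0183) and changed by 0.46 with an SE of 0.10 and an adjusted p of 0.124 in the Igf2-labelled line (adjusted p = 0.0155 in the fit of 6 arrays). Its second probe moved by 0.68 (adjusted p = 0.0442) in the H19-labelled line, also past the threshold.

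Edem1, which helps direct misfolded glycoproteins to degradation and lies on chromosome 6, was dim at 7.29 and 7.15 on the Igf2-labelled arrays, 7.47 and 7.55 on the H19-labelled arrays, 6.76 and 6.62 on the parthenogenetic arrays and 6.70 and 6.43 on the normal arrays. All 4 arrays of the modified lines again lay above the other 4. The change was 0.82 with an SE of 0.13 and an adjusted p of 0.0273 in the H19-labelled line and 0.53 with an SE of 0.13 and an adjusted p of 0.177 in the Igf2-labelled line (adjusted p = 0.0205 in the fit of 6). Without background correction the change in the H19-labelled line was 0.46 with an adjusted p of 0.043, still past the threshold. That in the Igf2-labelled line was then 0.29 with an adjusted p of 0.301. The size of the change of this dim probe thus depends on the background step.

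Hspa5 encodes BiP, the main ER chaperone of the HSP70 family and the protein that holds the sensors inactive. Its probe measured 10.01 and 10.16 on the Igf2-labelled arrays, 10.27 and 10.62 on the H19-labelled arrays, 9.69 and 9.43 on the parthenogenetic arrays and 10.31 and 9.53 on the normal arrays. Both modified lines lay above parthenogenetic cells, but normal replicate 1 lay between the H19-labelled arrays and normal replicate 2 between the parthenogenetic arrays. The change over parthenogenetic cells was 0.89 with an SE of 0.26 and an adjusted p of 0.111 in the H19-labelled line and 0.53 with an SE of 0.26 and an adjusted p of 0.556 in the Igf2-labelled line. In the fit of 6 arrays it rose in the H19-labelled line (adjusted p = 0.00584), with an adjusted p of 0.0782 in the Igf2-labelled line. Hsp90b1 encodes GRP94, the HSP90 of the ER, and measured 13.78 and 13.89 on the Igf2-labelled arrays, 13.97 and 13.99 on the H19-labelled arrays, 13.58 and 13.71 on the parthenogenetic arrays and 13.66 and 13.51 on the normal arrays. Its change was 0.34 with an SE of 0.12 and an adjusted p of 0.148 in the H19-labelled line, where it rose in the fit of 6 (adjusted p = 0.0243), and 0.19 with an SE of 0.12 and an adjusted p of 0.669 in the Igf2-labelled line.

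Pdia6, a disulfide isomerase that also attenuates IRE1 signalling, measured 9.15 and 9.02 on the Igf2-labelled arrays, 9.41 and 9.32 on the H19-labelled arrays, 8.92 and 8.79 on the parthenogenetic arrays and 8.36 and 8.17 on the normal arrays. The groups stood in steps, the H19-labelled line highest, then the Igf2-labelled line, parthenogenetic cells and normal cells, with no overlap between neighbours. The change over parthenogenetic cells was 0.52 with an SE of 0.12 and an adjusted p of 0.0673 in the H19-labelled line (adjusted p = 0.00625 in the fit of 6) and 0.23 with an SE of 0.12 and an adjusted p of 0.586 in the Igf2-labelled line. Hyou1, an HSP70-like chaperone and nucleotide exchange factor of BiP, measured 9.32 and 9.48 on the Igf2-labelled arrays, 9.59 and 9.55 on the H19-labelled arrays, 9.04 and 9.07 on the parthenogenetic arrays and 8.98 and 8.90 on the normal arrays and was in the same order. Its change was 0.51 with an SE of 0.11 and an adjusted p of 0.0529 in the H19-labelled line (adjusted p = 0.00518 in the fit of 6) and 0.34 with an SE of 0.11 and an adjusted p of 0.287 in the Igf2-labelled line.

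Xbp1 and Herpud1 were the only members of the arm with lower means in both modified lines than in parthenogenetic cells, and neither passed in the fit of 8 arrays. Xbp1, the transcription factor whose spliced form drives many of these genes, measured 12.79 and 12.80 on the Igf2-labelled arrays, 12.66 and 12.69 on the H19-labelled arrays, 12.96 and 12.65 on the parthenogenetic arrays and 12.79 and 12.41 on the normal arrays, and all groups overlapped with at least 1 other. Its change was -0.13 with an SE of 0.17 and an adjusted p of 0.687 in the H19-labelled line and -0.01 with an SE of 0.17 and an adjusted p of 0.994 in the Igf2-labelled line. A probe intensity does not separate the spliced from the unspliced transcript. Herpud1, an ER membrane protein of the degradation pathway and the only chaperone gene with the amino acid response letters, measured 11.83 and 11.89 on the Igf2-labelled arrays, 11.67 and 11.67 on the H19-labelled arrays, 11.89 and 11.91 on the parthenogenetic arrays and 11.69 and 11.64 on the normal arrays. The H19-labelled arrays lay below the parthenogenetic ones and level with the normal ones. It changed by -0.23 with an SE of 0.10 and an adjusted p of 0.226 in the H19-labelled line, a fall in the fit of 6 only (adjusted p = 0.0474), and by -0.04 with an SE of 0.10 and an adjusted p of 0.967 in the Igf2-labelled line. Its second probe gave -0.16 in the H19-labelled line and did not pass there in the fit of 6 either (adjusted p = 0.196).

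The other 5 genes of the arm passed in neither fit against parthenogenetic cells. They are Calr (calreticulin), Pdia3 (its partner isomerase), Syvn1 (the ubiquitin ligase HRD1), Dnajb9 and Dnajc3 (both co-chaperones of BiP). Their changes in the H19-labelled line ran from -0.08 for Dnajb9 to 0.36 for Calr, and in the Igf2-labelled line from 0.15 for Dnajb9 to 0.38 for Calr. Calr was above parthenogenetic cells on all 4 arrays of the modified lines, and its change was 0.36 with an SE of 0.14 and an adjusted p of 0.193 in the H19-labelled line.

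**Figure D2:**
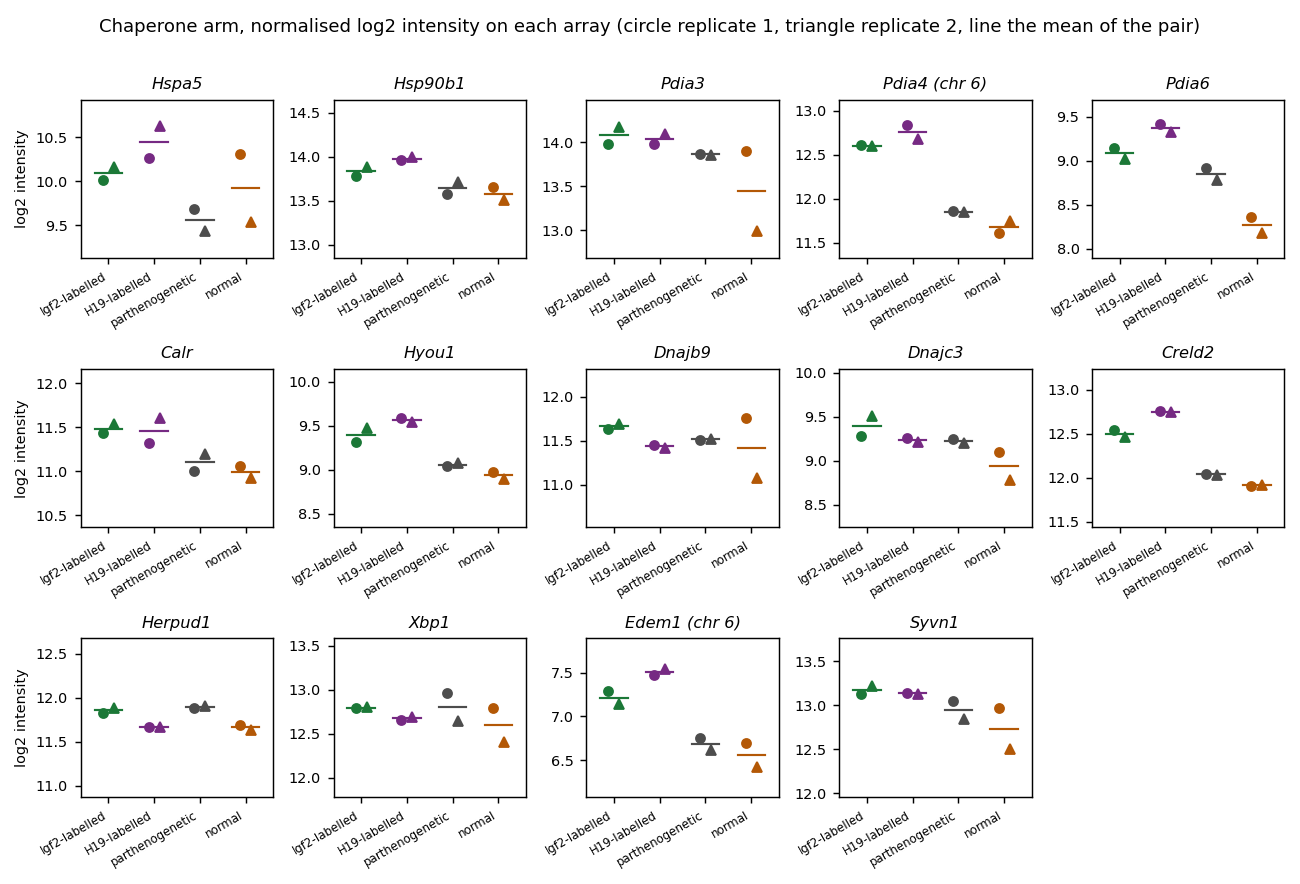
Normalised log2 intensity of the 14 measured chaperone arm genes on each of the 8 arrays, with the replicates as symbols and the mean of each group as a line. Pdia4, Creld2, Edem1, Pdia6, Hyou1, Hsp90b1, Calr, Pdia3 and Syvn1 are higher on all arrays of the modified lines than on all parthenogenetic and normal arrays. How many of all probes separate in this way was not counted. The normal replicates lie apart for Hspa5 and Pdia3.

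The ATF4 arm moved in both directions. Its median change was 0.027 in the H19-labelled line and 0.092 in the Igf2-labelled line over parthenogenetic cells. Values were higher for 8 of 16 and 10 of 16 genes, against 53% and 47.5% of all probes. In the H19-labelled line Atf3 and Slc7a11 fell and none rose in the fit of 8 arrays. In the fit of 6, Asns, Shmt2 and Mthfd2 rose and Atf3, Chac1 and Slc7a11 fell. These 3 rises and 3 falls among 16 genes are near the shares of all probes in that fit, 16.1% and 17.1%. In the Igf2-labelled line none passed in the fit of 8 arrays, with 6 of 16 at an unadjusted p under 0.05, against 11.1% of all probes. In the fit of 6 Asns and Mthfd2 rose and Atf3, Chac1 and Phgdh fell there, where 5.44% of all probes rose and 4.25% fell.

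Atf4, the factor at the head of the arm, is regulated largely through translation of its mRNA. Its probe measured 12.85 and 12.72 on the Igf2-labelled arrays, 12.74 and 12.77 on the H19-labelled arrays, 12.83 and 12.81 on the parthenogenetic arrays and 12.77 and 12.49 on the normal arrays. The Igf2-labelled arrays spanned both the H19-labelled and the parthenogenetic ones, and normal replicate 2 was the lowest. The change was -0.07 with an SE of 0.13 and an adjusted p of 0.795 in the H19-labelled line and -0.04 with an SE of 0.13 and an adjusted p of 0.98 in the Igf2-labelled line. Ddit3 encodes CHOP, a transcription factor linked to cell death in prolonged stress, and measured 10.77 and 10.36 on the Igf2-labelled arrays, 10.08 and 10.05 on the H19-labelled arrays, 10.15 and 10.12 on the parthenogenetic arrays and 10.27 and 9.78 on the normal arrays. The Igf2-labelled arrays were the highest, and the normal arrays spanned the H19-labelled and parthenogenetic ones. It changed by -0.07 with an SE of 0.20 and an adjusted p of 0.866 in the H19-labelled line and by 0.43 with an SE of 0.20 and an adjusted p of 0.512 in the Igf2-labelled line, and passed in neither fit.

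Atf3, a repressor of the ATF family induced by many stresses, measured 8.43 and 8.54 on the Igf2-labelled arrays, 8.14 and 8.02 on the H19-labelled arrays, 9.23 and 9.14 on the parthenogenetic arrays and 8.98 and 8.71 on the normal arrays. Every array of both modified lines lay below every parthenogenetic and normal array. It was 2.15-fold lower in the H19-labelled line (-1.11 with an SE of 0.13 and an adjusted p of 0.0113) and 1.62-fold lower in the Igf2-labelled line (-0.70 with an SE of 0.13 and an adjusted p of 0.0847, with an adjusted p of 0.00809 in the fit of 6). Chac1, which degrades glutathione, measured 11.06 and 10.84 on the Igf2-labelled arrays, 11.29 and 11.32 on the H19-labelled arrays, 11.81 and 12.04 on the parthenogenetic arrays and 11.44 and 11.92 on the normal arrays. All arrays of the modified lines lay below the other 4. Its change was -0.98 with an SE of 0.19 and an adjusted p of 0.0907 in the Igf2-labelled line (adjusted p = 0.00727 in the fit of 6) and -0.62 with an SE of 0.19 and an adjusted p of 0.112 in the H19-labelled line (adjusted p = 0.0086). Both promoters hold the amino acid response letters shown above, and so does that of Asns, which moved the other way.

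Slc7a11 encodes xCT, the light chain of the cystine and glutamate exchanger, and its probe was dim at 7.59 and 7.72 on the Igf2-labelled arrays, 6.64 and 6.57 on the H19-labelled arrays, 7.44 and 7.38 on the parthenogenetic arrays and 7.51 and 7.16 on the normal arrays. Only the H19-labelled arrays were low, below every other array, and the probe was detected on 1 of those 2 arrays, so its level there is close to background. The change over parthenogenetic cells was -0.80 with an SE of 0.14 and an adjusted p of 0.033 in the H19-labelled line and 0.25 with an SE of 0.14 and an adjusted p of 0.629 in the Igf2-labelled line. The change in the H19-labelled line was -0.44 with an adjusted p of 0.0554 without background correction and -0.47 with an adjusted p of 0.0507 in the authors' log2 table, no longer past the threshold in either.

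The amino acid and one-carbon enzymes did not move as 1 block. Asns, asparagine synthetase on chromosome 6, measured 15.09 and 15.11 on the Igf2-labelled arrays, 15.04 and 15.04 on the H19-labelled arrays, 14.77 and 14.66 on the parthenogenetic arrays and 14.68 and 14.61 on the normal arrays, with both modified lines above the rest on every array. Its change was 0.39 with an SE of 0.10 and an adjusted p of 0.197 in the Igf2-labelled line and 0.32 with an SE of 0.10 and an adjusted p of 0.126 in the H19-labelled line, a rise in the fit of 6 in both (adjusted p = 0.028 and 0.0189). Its 2 dimmer probes gave 0.49 and 0.61 in the Igf2-labelled line and 0.32 and 0.47 in the H19-labelled line. Mthfd2, the mitochondrial one-carbon enzyme on chromosome 6, measured 11.52 and 11.45 on the Igf2-labelled arrays, 11.62 and 11.74 on the H19-labelled arrays, 11.08 and 11.06 on the parthenogenetic arrays and 10.93 and 11.28 on the normal arrays. It was above both other groups on all arrays of the modified lines, by 0.61 with an SE of 0.14 and an adjusted p of 0.0647 in the H19-labelled line and 0.42 with an SE of 0.14 and an adjusted p of 0.311 in the Igf2-labelled line over parthenogenetic cells, again rises in the fit of 6 (adjusted p = 0.00239 and 0.0272).

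Phgdh catalyses the first step of serine synthesis and measured 10.89 and 10.93 on the Igf2-labelled arrays, 11.01 and 11.06 on the H19-labelled arrays, 11.26 and 11.20 on the parthenogenetic arrays and 10.84 and 10.85 on the normal arrays. Parthenogenetic cells had the highest values, and the change was -0.32 with an SE of 0.10 and an adjusted p of 0.266 in the Igf2-labelled line, a fall in the fit of 6 (adjusted p = 0.0424), and -0.19 with an SE of 0.10 and an adjusted p of 0.3 in the H19-labelled line. Shmt2, the mitochondrial enzyme that splits serine into glycine and a one-carbon unit, measured 11.24 and 11.30 on the Igf2-labelled arrays, 11.62 and 11.59 on the H19-labelled arrays, 11.34 and 11.36 on the parthenogenetic arrays and 10.76 and 10.87 on the normal arrays. The H19-labelled line was highest and normal cells lowest on all arrays. Its change was 0.26 with an SE of 0.10 and an adjusted p of 0.202 in the H19-labelled line, a rise in the fit of 6 (adjusted p = 0.0338) that its second probe did not share (0.25, adjusted p = 0.0548 in the fit of 6), and -0.08 with an SE of 0.10 and an adjusted p of 0.915 in the Igf2-labelled line. Cth, which makes cysteine from cystathionine, measured 11.26 and 11.20 on the Igf2-labelled arrays, 10.79 and 10.84 on the H19-labelled arrays, 11.00 and 10.89 on the parthenogenetic arrays and 10.25 and 10.38 on the normal arrays. The Igf2-labelled arrays were the highest and the normal arrays the lowest, and neither modified line passed against parthenogenetic cells, at 0.29 with an SE of 0.11 and an adjusted p of 0.385 in the Igf2-labelled line and -0.13 with an SE of 0.11 and an adjusted p of 0.537 in the H19-labelled line.

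The other 6 genes of the arm passed in no comparison in the fits of 8 or of 6 arrays: Trib3 (a pseudokinase that restrains ATF4 and CHOP), Sesn2 (a leucine sensor acting on mTORC1), Psat1 (serine synthesis), Aldh18a1 (proline synthesis), Slc7a5 and Slc3a2 (the large neutral amino acid transporter and its heavy chain). Their changes over parthenogenetic cells lay between -0.01 for Slc3a2 and 0.29 for Trib3 in the H19-labelled line, and between -0.08 for Slc3a2 and 0.16 for Trib3 in the Igf2-labelled line. Slc3a2 was the member with the widest gap between parthenogenetic replicates, 0.512.

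**Figure D3:**
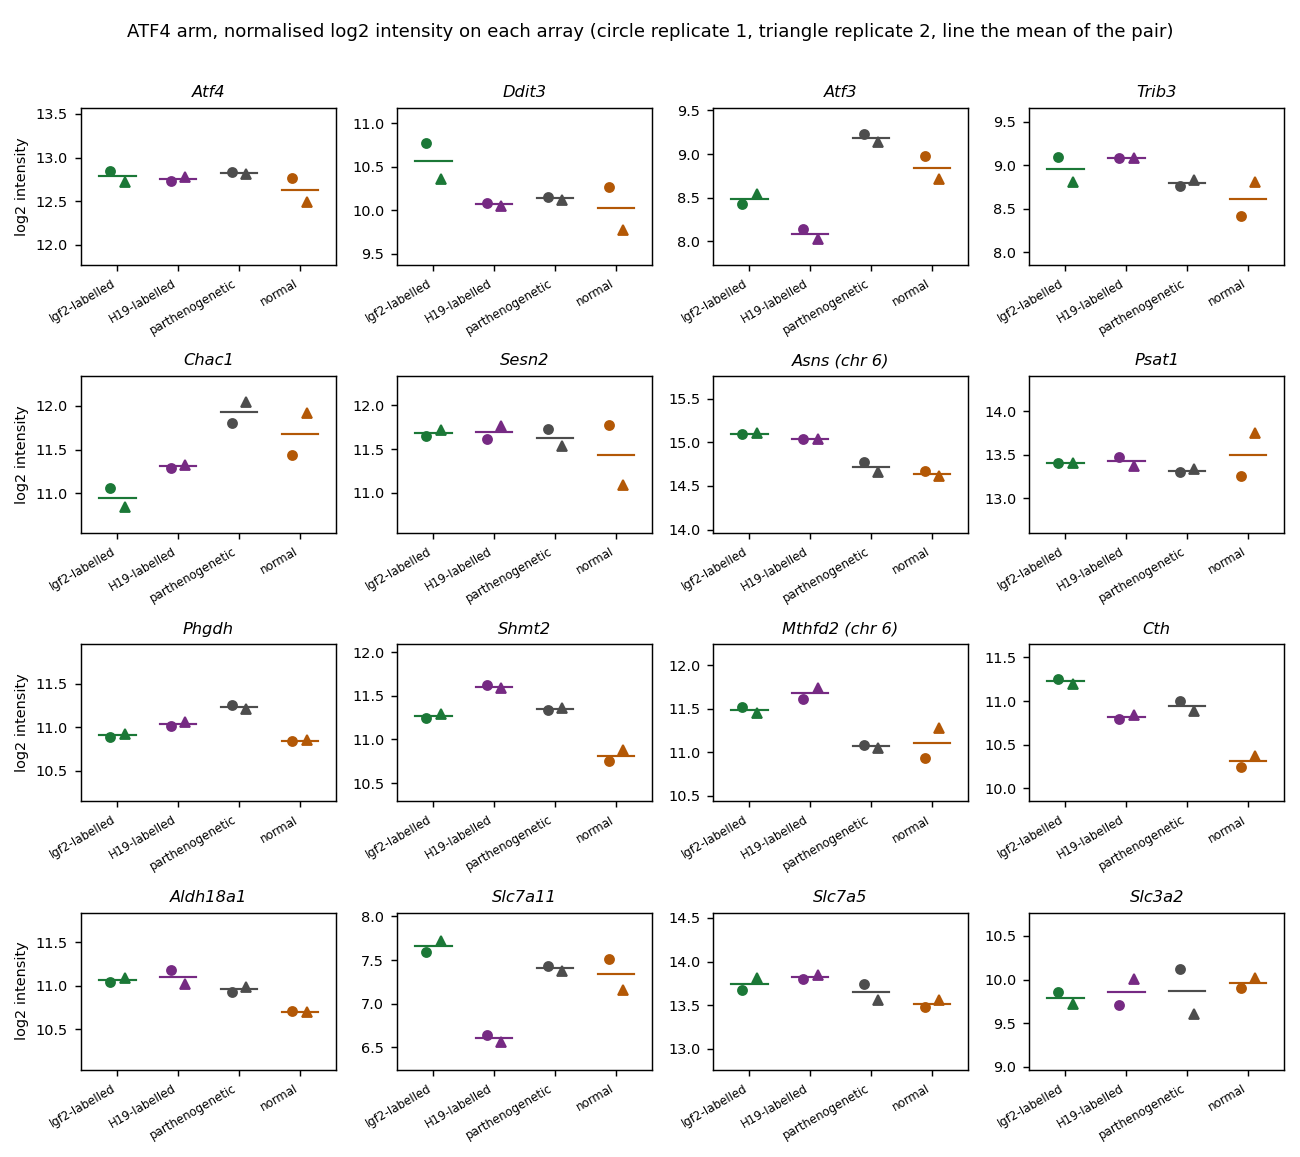
Normalised log2 intensity of the 16 measured ATF4 arm genes on each of the 8 arrays, with the replicates as symbols and the mean of each group as a line. Atf3 and Chac1 are lower, and Asns, Mthfd2 and Aldh18a1 higher, on all arrays of both modified lines than on all other arrays. Slc7a11 is low on the H19-labelled arrays only.

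**Figure D4:**
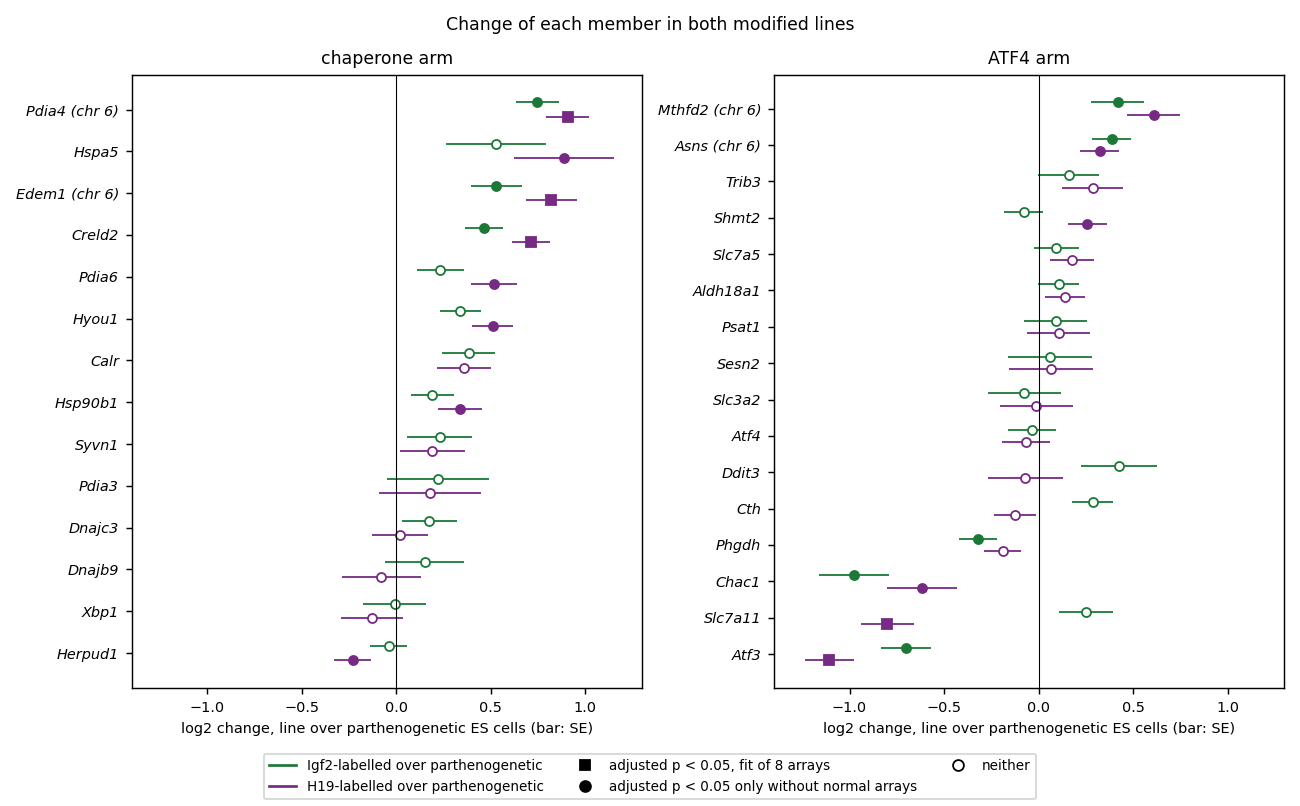
Log2 change of each member over parthenogenetic ES cells in the Igf2-labelled line and the H19-labelled line, with bars of 1 SE, ordered within each arm by the change in the H19-labelled line. Squares passed in the fit of 8 arrays, filled circles only in the fit without the normal arrays, and open circles in neither. The chaperone arm lies mostly right of 0 and the ATF4 arm on both sides.

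The 4 members on chromosome 6 were read against the rest of that chromosome. All 443 tested genes of chromosome 6 had a median change of 0.408 in the H19-labelled line and 0.321 in the Igf2-labelled line over parthenogenetic cells, against 0.004 and -0.022 for 8286 genes elsewhere. Of the 443 genes 72 rose and 1 fell in the H19-labelled line, and 8 rose and 0 fell in the Igf2-labelled line. Of the genes elsewhere 133 rose and 165 fell in the H19-labelled line and 14 rose and 31 fell in the Igf2-labelled line. Asns and Mthfd2 were called only in the fit of 6 arrays, where 251 of the 443 rose and 52 fell in the H19-labelled line, against 1108 and 1537 of the 8286. There 177 of the 443 rose and 5 fell in the Igf2-labelled line, against 297 and 371 of the 8286. Asns and Mthfd2 in the Igf2-labelled line, at 0.39 and 0.42, and Asns in the H19-labelled line, at 0.32, lay close to the chromosome's median. Mthfd2 in the H19-labelled line (0.61) and Pdia4 and Edem1 in both lines lay above it. The change of the dim Edem1 probe was smaller without background correction, 0.29 in the Igf2-labelled line and 0.46 in the H19-labelled line. The chromosome's median was not taken in that setting. The place of Asns depends on the probe. Its 2 dimmer probes lay above the median in the Igf2-labelled line (0.49 and 0.61) and on either side of it in the H19-labelled line (0.32 and 0.47). Without Pdia4 and Edem1 the median of the remaining 12 chaperone genes was 0.263 in the H19-labelled line and 0.224 in the Igf2-labelled line, and the calls left in the H19-labelled line were Creld2 in the fit of 8 arrays and Hspa5, Hsp90b1, Pdia6, Hyou1, Creld2 and Herpud1 in the fit of 6. Without Asns and Mthfd2 the 14 remaining ATF4 genes had medians of -0.039 and 0.074. What part the chromosome has in the level of any 1 gene was not tested.

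The modified lines were also set against each other. None of the 30 members passed in the fit of 8 arrays, where 0.0851% of all probes were higher in the H19-labelled line and 0.116% lower. Before adjustment 6 of the 30 had a limma p under 0.05, as did 13.9% of all probes. In the fit of 6 arrays 1 rose (Shmt2) and 4 fell (Slc7a11, Cth, Atf3 and Ddit3), all of the ATF4 arm, against backgrounds of 8.61% and 12%. The count was also 5 without either normal array, and 0 without any other array. Slc7a11 differed by -1.05 with an SE of 0.14 and an adjusted p of 0.0546, with an adjusted p of 0.00178 in the fit of 6. Without background correction, in the fit of 8 arrays, it differed by -0.60 with an adjusted p of 0.103, and the H19-labelled side is the one close to background. Cth differed by -0.41 with an SE of 0.11 and an adjusted p of 0.225, Shmt2 by 0.34 with an SE of 0.10 and an adjusted p of 0.259, Atf3 by -0.41 with an SE of 0.13 and an adjusted p of 0.276 and Ddit3 by -0.50 with an SE of 0.20 and an adjusted p of 0.347. Their adjusted p in the fit of 6 was 0.0157 for Cth, 0.0214 for Shmt2, 0.0219 for Atf3 and 0.0472 for Ddit3. The second Ddit3 probe gave -0.51, past the threshold in the fit of 6 (adjusted p = 0.0153), and the second Shmt2 probe gave 0.24 and was not (adjusted p = 0.0825). The chaperone arm had no call between the lines in either fit, with 1 of 14 at an unadjusted p under 0.05, a median of 0.062 and changes between -0.229 and 0.357.

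Parthenogenetic cells were then set against normal cells, the comparison of a maternal-only with a biparental genome. None of the 30 members passed in the fit of 8 arrays, where 0.0232% of all probes were higher and 0.0851% lower. Before adjustment 5 of the 30 had a limma p under 0.05, as did 11% of all probes. Values were higher in parthenogenetic cells for 13 of 14 chaperone genes, with a median of 0.15, and for 13 of 16 ATF4 genes, with a median of 0.188, against 48.3% of all probes. The chaperone median was 0.028 without normal replicate 2 and 0.258 without normal replicate 1. Values were higher for 8 of 14 genes without normal replicate 2 and for 14 of 14 without normal replicate 1, against 52.7% and 45.7% of all probes. Both the count and the median of the chaperone arm thus depend on the array that stood apart. For the ATF4 arm the medians were 0.155 and 0.252, with 12 of 16 values higher in either case. The number of members called was 2 without normal replicate 2, when 0.874% of all probes passed, and 12 without normal replicate 1, when 40.2% did. The genes called without normal replicate 2 were Shmt2 (0.59, adjusted p = 0.0474) and Cth (0.70, adjusted p = 0.0378). In the fit of 8 arrays Cth changed by 0.63 with an SE of 0.11 and an adjusted p of 0.168, Shmt2 by 0.53 with an SE of 0.10 and an adjusted p of 0.21 and Pdia6 by 0.58 with an SE of 0.12 and an adjusted p of 0.229, with no overlap between parthenogenetic and normal arrays in any of the 3.

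Against normal cells, 3 members rose and none fell in the Igf2-labelled line, where 0.448% of all probes rose and 0.603% fell. They were Cth (0.92 with an SE of 0.11 and an adjusted p of 0.0233), Pdia4 (0.92 with an SE of 0.11 and an adjusted p of 0.0243) and Pdia6 (0.82 with an SE of 0.12 and an adjusted p of 0.0404). In the H19-labelled line 6 rose and 2 fell, where 2.95% of all probes rose and 2.08% fell. The rises were of Pdia6 (1.10 with an SE of 0.12 and an adjusted p of 0.00716), Pdia4 (1.08 with an SE of 0.11 and an adjusted p of 0.00579), Creld2 (0.84 with an SE of 0.10 and an adjusted p of 0.0086), Edem1 (0.94 with an SE of 0.13 and an adjusted p of 0.0152, with 0.52 and an adjusted p of 0.0245 without background correction), Hyou1 (0.63 with an SE of 0.11 and an adjusted p of 0.0249) and Shmt2 (0.79 with an SE of 0.10 and an adjusted p of 0.0116), and the falls of Atf3 (-0.77 with an SE of 0.13 and an adjusted p of 0.0238) and Slc7a11 (-0.73 with an SE of 0.14 and an adjusted p of 0.0359, but -0.40 with an adjusted p of 0.0715 without background correction). Both lines share the normal arrays here, and none of these members passed with array weights or in a fit of only the 2 groups compared. Without normal replicate 2 the Igf2-labelled line had 9 calls (7.01% of all probes passed) and the H19-labelled line 14 (30.6%), and without normal replicate 1 each had 22 (41% and 30.5%). Without any one of the Igf2-labelled, H19-labelled or parthenogenetic arrays the Igf2-labelled count was 0, and the H19-labelled count was 5 without either Igf2-labelled array, 4 without either parthenogenetic array and 0 without either H19-labelled array. The chaperone median over normal cells was 0.456 in the Igf2-labelled line and 0.499 in the H19-labelled line, and 0.248 and 0.244 without normal replicate 2. The ATF4 median was 0.287 and 0.225 in the same order, and 0.21 and 0.183 without that array.

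The values of the called members without normal replicate 2 were as follows. In the Igf2-labelled line Cth changed by 0.98 (adjusted p = 0.00533), Pdia4 by 0.99 (adjusted p = 0.00604) and Pdia6 by 0.72 (adjusted p = 0.0184). In the H19-labelled line Pdia6 changed by 1.01 (adjusted p = 0.00173), Pdia4 by 1.15 (adjusted p = 0.00106), Creld2 by 0.84 (adjusted p = 0.00158), Edem1 by 0.81 (adjusted p = 0.00364), Hyou1 by 0.59 (adjusted p = 0.00718), Shmt2 by 0.85 (adjusted p = 0.00149), Atf3 by -0.90 (adjusted p = 0.00216) and Slc7a11 by -0.90 (adjusted p = 0.00188). All 8 in the H19-labelled line and all 3 in the Igf2-labelled line kept their direction and their call without that array.

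Other genes of these pathways were counted from lists beside the members. Of 7 measured UPR sensors and eIF2alpha kinases and phosphatase genes none passed in the H19-labelled line over parthenogenetic cells, with a median of 0.125. Before adjustment 2 of the 7 had a limma p under 0.05, as did 23% of all probes. Ppp1r15b, a regulatory subunit of the eIF2alpha phosphatase, rose over normal cells (0.59, adjusted p = 0.0407). Of 15 other ER folding genes 1 rose, Ero1b, an oxidase that recharges the disulfide isomerases (0.79, adjusted p = 0.0342), and the median was 0.181. Over normal cells Ero1b (0.83, adjusted p = 0.0238) and Dnajc10, an ER reductase (0.47, adjusted p = 0.0466), rose in the same line. Of 17 other ATF4 target genes 1 fell, Gpt2, an alanine transaminase (-0.63, adjusted p = 0.0397), and over normal cells Slc1a4, a neutral amino acid transporter, fell (-0.57, adjusted p = 0.0367). The median of these targets over parthenogenetic cells was -0.134. None of 8 ER degradation genes (median 0.043, 0 at an unadjusted p under 0.05), 16 cytosolic aminoacyl-tRNA synthetases (0.06, 2) and 12 cytosolic heat shock genes (0.082, 1) passed in that comparison. The share of 23% of all probes stands beside these counts too. In the Igf2-labelled line over parthenogenetic cells none of these 74 genes, 1 of which is in 2 lists, passed in limma's fit of 8 arrays. An unadjusted p under 0.05 was found for 5 of the 74, against 11.1% of all probes. None passed between the modified lines either (4 at an unadjusted p under 0.05, against 13.9% of all probes). The same held for parthenogenetic over normal cells (11, against 11%) and for the Igf2-labelled line over normal cells (16, against 15.8%). The calls of Ppp1r15b, Ero1b, Dnajc10 and Slc1a4 over normal cells were not checked without normal replicate 2.

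Of the 74 genes 10 rose and 11 fell in the fit of 6 arrays in the H19-labelled line over parthenogenetic cells, beside the 16.1% and 17.1% of all probes given above. The ER folding genes gave 5 of the rises, led by Ero1b (0.79, adjusted p = 0.00465) and Txndc11, a thioredoxin domain protein of the ER (0.65, adjusted p = 0.0163), and 1 fall, Selenok (-0.34, adjusted p = 0.0219). Among the sensors and kinases Eif2ak3, which encodes PERK and lies on chromosome 6 (0.56, adjusted p = 0.00844), and Ppp1r15b (0.50, adjusted p = 0.0067) rose, and Eif2ak2, the kinase PKR (-0.46, adjusted p = 0.00627), fell. Of the other ATF4 targets 5 fell and none rose, led by Cebpb, a C/EBP factor (-0.69, adjusted p = 0.00132), and Gpt2 (-0.63, adjusted p = 0.00178). The synthetases gave 3 rises, of Gars on chromosome 6 (0.41, adjusted p = 0.00959), Farsa (0.35, adjusted p = 0.0131) and Lars (0.26, adjusted p = 0.04). The degradation genes gave 2 falls, of Os9 (-0.48, adjusted p = 0.00583) and Ube2j1 (-0.44, adjusted p = 0.0048), and the cytosolic heat shock genes 2, of Hspa1a (-0.69, adjusted p = 0.00825) and Bag3 (-0.64, adjusted p = 0.00125). The Igf2-labelled line had 2 rises (Ero1b and Gars) and 2 falls (Stc2 and Gpt2), where 5.44% of all probes rose and 4.25% fell. Between the modified lines 2 were higher and 6 lower in the H19-labelled line, against 8.61% and 12% of all probes.

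Markers of other cells moved with the H19-labelled comparison. Feeder or differentiated fibroblasts secrete much matrix protein, and their 26 measured markers, 25 of them detected on all arrays, had a median change of -0.849 in the H19-labelled line and -0.231 in the Igf2-labelled line over parthenogenetic cells. All 26 were lower in the H19-labelled line, Ccn2 past the threshold (-0.81, adjusted p = 0.0145), and 25 passed in the fit of 6 arrays. Their summed intensity was 96446 and 86437 units on the H19-labelled arrays, 145469 and 130451 on the Igf2-labelled arrays, 158011 and 156855 on the parthenogenetic arrays and 176659 and 72738 on the normal arrays. Normal replicate 2 had both the lowest sum and the lowest chaperone mean, and the H19-labelled arrays had the next lowest sums and the highest chaperone means. Endoderm markers, 13 measured and 10 detected on all arrays, had a median of -0.145 in the H19-labelled line, with Lamb1 past the threshold (-0.71, adjusted p = 0.0273), 4 of 13 values higher and a range from -0.71 to 1.29. The fit of 6 arrays gave 6 falls and 2 rises, of Amn (1.29, adjusted p = 0.000601) and Lama1 (0.54, adjusted p = 0.00646). Pdgfra, among these falls, is also on the fibroblast list and is counted in both. Amn read 622 and 534 units on the H19-labelled arrays, against 299 and 298 units on the parthenogenetic arrays. The summed intensity of the 13 was 17600 and 15302 units on the H19-labelled arrays, 20121 and 18206 on the Igf2-labelled arrays, 19544 and 19977 on the parthenogenetic arrays and 22673 and 29960 on the normal arrays. The 13 measured ES cell markers had a median of 0.202 in the H19-labelled line, with 11 values higher, against 53% of all probes. Before adjustment 3 of the 13 had a limma p under 0.05, as did 23% of all probes. None passed in the fit of 8 arrays, and in the fit of 6 the rises were 5, led by Fgf4 (0.84, adjusted p = 0.00315) and by Nanog on chromosome 6 (0.50, adjusted p = 0.0052). Their median in the Igf2-labelled line was 0.096, with the same pair past the threshold in the fit of 6. No marker of these lists was at 0, since every intensity includes background. The part of these markers in the members' changes was not tested.

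**Figure D5:**
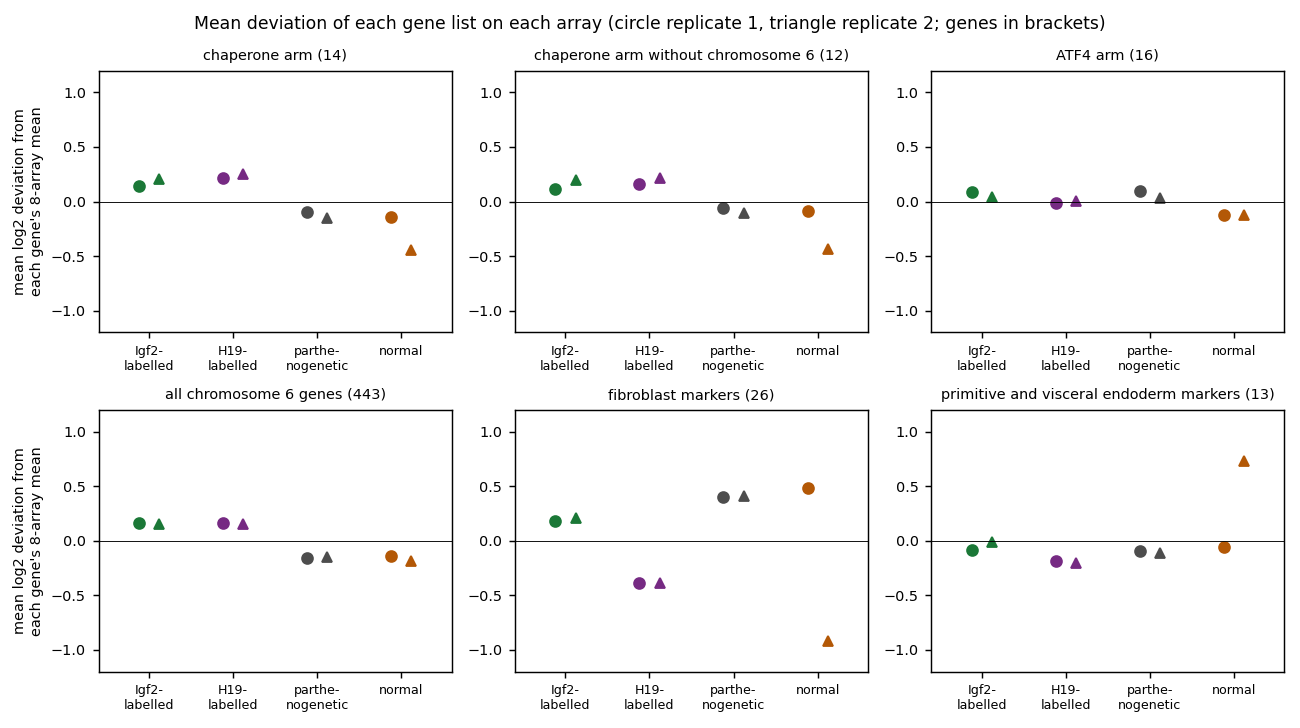
Mean deviation of a gene list from each gene's 8-array mean, in log2 units, on each array, with circles for replicate 1 and triangles for replicate 2. The chaperone arm is above 0 on all 4 arrays of the modified lines with and without its chromosome 6 genes, the ATF4 arm lies near 0, and normal replicate 2 is low for fibroblast markers and high for endoderm markers.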

How the data were processed

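Total RNA from mouse ES cells of 4 groups, with 2 samples each, was hybridised to Illumina bead arrays. The authors deposited probe intensity values without normalization between arrays, with a detection p-value for each one, as the columns of the deposited table name them. They also deposited a log2 table of 12690 probes, those detected on 4 or more arrays, in which each array's median was 9.55. That table follows log2 of the intensity (correlation at least 0.9999), and the software behind it is not given in the sources used here. Sample titles gave the groups and replicate numbers.

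Background correction, quantile normalization and the log2 step used neqc in limma 3.58.1 (R 4.3.3, offset 16, with negative control values estimated through the detection p-values). A probe was tested if some group had it below a detection p-value of 0.05 on its 2 arrays, which left 12932. The 4 group means were fitted over 8 arrays (lmFit, eBayes), with 4 residual degrees of freedom and a prior of 2.81. Changes were tested two-sided in 6 comparisons, with Benjamini-Hochberg adjustment over all tested probes and a threshold of 0.05. The step was checked on simulated data in which each probe had the same spread on all 8 arrays. The wider gap between the normal replicates was not simulated. Gene names come from the platform annotation (11960 probes with 1 gene symbol, 0 with several, 13737 unnamed here), and 11953 named probes matched RefSeq (GRCm38.p6) by gene identifier. Each gene is represented by its brightest probe by mean intensity, and 6 members had more than 1 tested probe.

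The members, the gene lists and the alternatives were chosen with earlier results of these data known. Values on every array are given for each member past the threshold in any comparison in the fit of 8 or of 6 arrays, each member on chromosome 6, and Atf4, Ddit3, Xbp1 and Hspa5. Other lists name at most 4 genes past the threshold per comparison. The alternatives covered background correction, detection filters, the log2 table of the authors, fewer groups per fit, a trended and robust prior, a replicate block, array weights, the mean of a gene's probes, and each array left out in turn, where a lone array is assumed to vary like the other groups. Same-numbered replicates did not deviate together across all groups (correlations of -0.0264 to 0.173), so the numbers were not used to pair arrays. The number of arrays limits the precision throughout.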

Additional observations from a re-analysis of the deposited data

How the results depend on the processing

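The 38 member changes checked were those past the threshold in the fit of 8 or of 6 arrays. All their 743 values under 20 alternative settings kept their sign. They were picked for passing in these data, and detection filters, priors and fits of fewer groups cannot turn a difference of group means. Changes that passed in neither fit did reverse in places. Without normal replicate 2, Hspa5 in the Igf2-labelled line over normal cells went from 0.17 to -0.22. Atf4 in the H19-labelled line over normal cells went from 0.13 to -0.015. Both arm medians also kept their sign over parthenogenetic and over normal cells, except that of the ATF4 arm in the H19-labelled line over parthenogenetic cells (0.027, range -0.054 to 0.1), and so did those between the lines, except that of the chaperone arm (0.062, range -0.022 to 0.105). The number of calls did move. For the Igf2-labelled line over parthenogenetic cells it was 0 as reported, 1 without background correction, with an offset of 50, without a detection filter, with detection on all 8 arrays, in the authors' log2 table and with the mean of a gene's probes, 2 with a trended and robust prior, 6 in a fit of only these 2 groups, 8 without both normal arrays and 9 with array weights. For the H19-labelled line over parthenogenetic cells it was 5, 13 in a fit of these 2 groups, 14 without both normal arrays and 15 with array weights. Between the modified lines it was 0, 1 with the mean of a gene's probes, 4 in a fit of these 2 groups, 5 without both normal arrays and 7 with array weights. For the Igf2-labelled line over normal cells it was 3, 5 with a trended and robust prior, and 0 with array weights and in a fit of these 2 groups. For the H19-labelled line over normal cells it was 8, and 0 with array weights and in a fit of these 2 groups. The cause of these moves was not tested, beyond the larger spread between the normal arrays given in the report.

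With 1 array left out the counts ran from 0 to 8 for the Igf2-labelled line over parthenogenetic cells, 0 to 14 for the H19-labelled line over them, 0 to 12 for parthenogenetic over normal cells, 0 to 5 for the H19-labelled over the Igf2-labelled line, and 0 to 22 for each modified line over normal cells. With the replicate number as a block the counts were 0 and 4 for the Igf2-labelled and H19-labelled lines over parthenogenetic cells and 0 and 6 over normal cells, and 0 in the other 2 comparisons. Whether same-numbered replicates share more than a number is not stated in the labels. What a call lost under this block means was not tested.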
